A study of Mus musculus with 31 samples.

Results

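Long transcribed loci of Srap1 knockout mouse embryonic stem (ES) cells were taken from an RNA table in which transcripts had been assembled from the reads. Members were chosen by width alone: every locus on chromosomes 1 to 19 of mouse build mm9 that spanned at least 50000 bases in the first knockout table. Of 139204 loci on these chromosomes, 590 (0.424%) were selected, and the whole table held 143073 loci. Width is the distance from the start to the end of the locus, introns included. Because width in the knockout table chose the members, every value from that table is a description.

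Srap1 carries a SRAP domain, which binds and processes DNA, and is named in the series title as a nuclease that erases methylcytosine oxidized by Tet enzymes. The study compared wild-type and Srap1 knockout cells by RNA sequencing and by immunoprecipitation of DNA (DIP), with further assays that were not analysed here. The groups used are RNA of wild-type ES cells (4 tables), RNA of Srap1 KO ES cells (2 tables), and DNA of Srap1 KO ES cells precipitated with control IgG (1 library). The 2 knockout tables held the same values throughout, so they count as 1 sample. Per the labels, both genotypes were derived together, had the strain 129SVxC57/BL6, and grew on gelatin with serum, leukemia inhibitory factor, the 2i inhibitors and ascorbic acid. The labels name no clone, no allele and no separate cultures, so the spread over the wild-type tables may be technical, and the knockout has no replicate check. No p-value is therefore given.

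A long locus in such a table usually stands for a long transcription unit, since mammalian genes hold introns that are many times longer than their exons. RNA depleted of ribosomal RNA keeps unspliced precursor beside the spliced product, and an assembler joins reads into 1 locus where exons or introns link them. An IgG control precipitates DNA without a specific target. Its read density depends, among other things, on how much DNA of a region is sampled and how much of it can be aligned uniquely.

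The tables give FPKM, a count of fragments divided by transcript length and by the size of the library, with a lower and an upper bound. No row carried a gene name and no mm9 annotation was used, so loci are given by their positions and could not be placed in genes, exons or introns. Neither the level of Srap1 nor the markers of ES cells could be examined, and the genotype rests on the labels. Read from the bounds of FPKM, the knockout table stood for about 10804715 fragments. The wild-type tables stood for 895779 to 926460, and for only 338453 to 355077 without their largest locus, which took more than 50% of each. The 590 long loci held 237155 of the knockout fragments (2.19%). The wild-type tables listed 8882 to 9295 loci, and their 5th percentile lay at 6.90 to 7.14 FPKM, so a weakly transcribed region could be seen in the knockout table and stay under the reach of the wild-type ones.

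The long loci together spanned 54.5 Mb, 2.21% of the extent of the autosomes. Their median width was 73820 bases, the middle 50% of them lay between 58558 and 105478, and the widest spanned 538146. In all, 161 reached 100000 bases, 31 reached 200000 and 5 reached 300000. Beside the threshold, the narrowest members spanned 50014 bases (chromosome 5, 88994118 to 89044132, 4.32 FPKM), 50116 bases (chromosome 8, 23972359 to 24022475, 10.7 FPKM) and 50165 bases (chromosome 7, 130521640 to 130571805, 18.1 FPKM). The widest loci left out spanned 49993 bases (chromosome 2, 152606402 to 152656395, 13.1 FPKM), 49981 bases (chromosome 11, 8343870 to 8393851, 13.0 FPKM) and 49978 bases (chromosome 17, 26275719 to 26325697, 14.0 FPKM). Nothing in level separated the loci on either side of the limit.

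Levels were moderate. The median was 11.8 FPKM, with quartiles at 6.90 and 21.5 and a range from 1.07 to 305 FPKM. At least 20 FPKM was reached by 160 members, at least 50 by 31 and at least 100 by 10. Loci of 20000 to 50000 bases in the same table, the nearest comparison in width (n = 1704), had a median of 13.0 FPKM, and all autosomal loci had 4.48. Within the long loci the level fell little with width, from a median of 13.1 FPKM at 50000 to 75000 bases to 9.32 FPKM in the 31 loci of at least 200000 bases. Spearman's rho between width and FPKM was -0.16 across the 590 loci, which share 1 library.

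**Figure D1:**
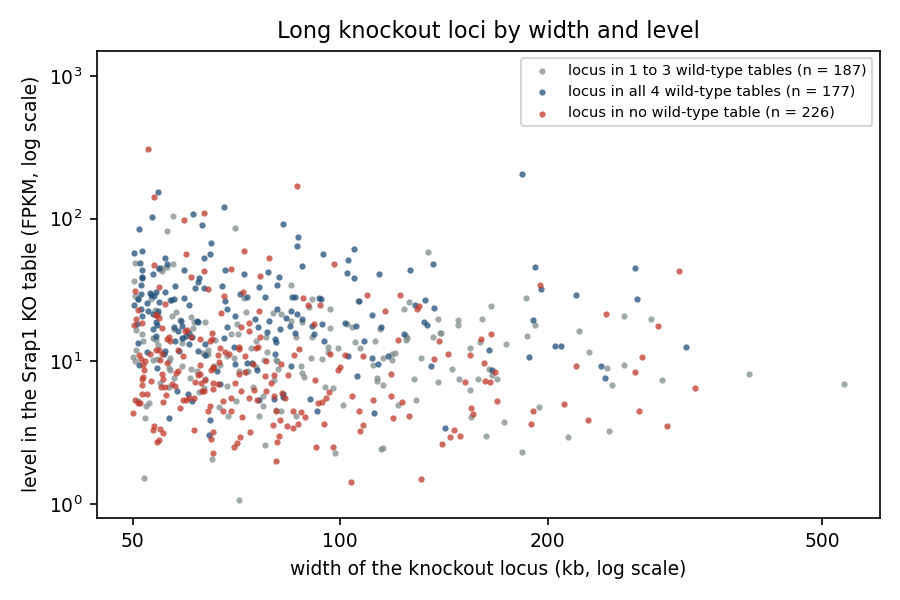
Width (kb, log scale) and level in the Srap1 KO table (FPKM, log scale) of the 590 long loci, 1 point per locus, coloured by the number of wild-type tables with a locus over it. Loci with no wild-type locus (226) lie mostly low in the plot, while a few of them reach the highest levels.

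The precision of a level varied widely between members. The distance from the value to its upper bound was 17.7% of the value at the median, against 15.7% in loci of 20000 to 50000 bases. For 14 members (2.37%) the lower bound was 0, against 25 (1.47%) of the comparison loci. In these 14, the median share of IgG DIP reads with a low mapping quality was 31.5%, against 6.92% in the other members. The 3 highest levels had wide bounds, unlike the 107 FPKM (bounds of 102 and 112) at chromosome 3, 41359691 to 41420777. The locus at chromosome 16, 91729796 to 91782454, had 305 FPKM with bounds of 113 and 498. The locus at chromosome 4, 144981373 to 145165003, had 205 FPKM with bounds of 121 and 290. The locus at chromosome 13, 29449388 to 29535940, had 170 FPKM with bounds of 91.6 and 248. The bounds of these 3 loci overlap, so their order is not resolved. The lowest levels were 1.07 FPKM at chromosome 4, 117633173 to 117704600 (bounds of 0 and 2.30), 1.43 FPKM at chromosome 16, 13985658 to 14089239 (0.973 and 1.88), and 1.49 FPKM at chromosome 19, 7140594 to 7271593 (0.743 and 2.23). Their bounds overlap as well.

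All 19 autosomes carried long loci, from 13 on chromosome 19 to 48 on chromosome 2. Per 10 Mb of chromosome there were 2.39, with the lowest density on chromosome 7 (1.84) and the highest on chromosome 11 (3.04). Set against the loci of 20000 to 50000 bases on the same chromosome, the order changed. There were 34.6 long loci for every 100 such loci over all autosomes, 27.8 on chromosome 9, 53.1 on chromosome 6 and 54.2 on chromosome 3. On chromosome 3 the 32 long loci stood beside only 59 loci of the narrower class, and on chromosome 6 the 43 long loci stood beside 81. Median levels by chromosome ran from 9.21 FPKM on chromosome 8 to 15.1 FPKM on chromosome 7.

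Members often lay near each other. The median distance from a member to its nearest neighbour was 1049 kb, and 287 members (48.6%) had another within 1 Mb. Joined at that distance, they formed 86 pairs, 26 groups of 3, 5 groups of 4, 2 groups of 5 and 1 group of 7, and 303 stood alone. The groups of 5 lay on chromosome 2 (71226179 to 73517961, 6.68 to 105 FPKM) and on chromosome 6 (32742214 to 34708571, 7.41 to 44.9 FPKM). Distances between neighbours were not compared with random placement or with those of narrower loci. The share with another within 1 Mb was 21.1% among 161 loci of at least 100000 bases and 63.6% among 858 of at least 40000. It thus moved with the number of loci.

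The group of 7 spanned 3.67 Mb of chromosome 1 (87973780 to 91640505), and its members were unlike each other. The first locus (87973780 to 88029496) had the highest level, 52.5 FPKM, and wild-type loci covered 60.0%, 30.3%, 28.2% and 71.8% of its bases in the 4 tables. The locus at 89230638 to 89303819 had 28.2 FPKM and was covered for 4.89%, 58.9%, 4.84% and 92.0%. The locus at 91351422 to 91506163 had 4.07 FPKM and was covered for 99.6% in wild-type replicate 3, for 3.23% in replicate 4 and for 0 in the other tables. These 3 were the members of the group that the wild-type tables covered for at least 90% when merged, and in each of them the tables differed. The loci at 88656873 to 88751032 (10.3 FPKM), at 90967076 to 91042713 (8.69 FPKM) and at 91560236 to 91640505 (7.39 FPKM) were covered for 0.0499%, 3.10% and 1.81%. The locus at 89967531 to 90111747 had 2.95 FPKM with a lower bound of 0, and no wild-type table listed a locus over it.

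Only 8 members overlapped another member. A pair on chromosome 17 overlapped at the ends (21598624 to 21697866 at 8.63 FPKM, and 21694098 to 21885767 at 18.01 FPKM). On chromosome 2 the locus at 150007563 to 150155686 (19.4 FPKM) lay wholly inside the one at 149942697 to 150188348 (3.23 FPKM). On chromosome 5, 4 members were stacked between 8660719 and 8866270, with levels of 19.7, 14.1, 10.6 and 57.9 FPKM in order of their starts. These loci share bases, so their covers and read densities are not separate measurements.

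Long loci also held many short ones. Another 9253 knockout loci (6.65% of the autosomal ones) overlapped a member, 16.97 for every 100 kb of member. All other autosomal sequence, transcribed or not, held 5.35 per 100 kb. The loci over members were small, with a median width of 362 bases, and 93.4% were under 1000 bases. Their median level was 5.49 FPKM, against 4.41 FPKM for loci off the members. At the median member they covered 2.06% of the bases. At least 1 such locus was present in 433 members, while 157 (26.6%) had none, against 34.8% of the loci of 20000 to 50000 bases. The number depends on width, with a median of 2 in members of 50000 to 75000 bases and 22 in those of at least 200000. The widest member, at chromosome 14, 12386087 to 12924233 (538146 bases, 6.91 FPKM), held 271 of them.

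At least 1 of the 4 wild-type tables had a locus over most, but not all, long loci. In each wild-type table, between 260 and 266 members (44.1% to 45.1%) were overlapped by at least 1 base of a locus. Counted over the 4 tables, 226 members (38.3%) had no wild-type locus at all, 80 had one in 1 table, 57 in 2, 50 in 3 and 177 (30.0%) in all 4. Among the loci of 20000 to 50000 bases 42.1% had no wild-type locus and 29.7% had one in all 4 tables. The shares of the long loci thus stood near those of the narrower ones.

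The number of wild-type loci over a member was small. In each table the median was 0 and the mean lay between 0.795 and 0.832, and the most over a single member was 12. Between 98 and 120 members had 2 or more loci in a table, so 1 knockout locus corresponded to several wild-type pieces there. The reverse also occurred. Of the 69 to 74 members that a table covered for at least 90%, 54 to 63 were covered to that extent by a single wild-type locus, and in 28 to 38 of those the wild-type locus was the wider one. The wild-type tables had 165 to 194 loci of at least 50000 bases of their own, and 97 to 107 of these overlapped a member.

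The share of bases covered split into extremes. With the 4 wild-type tables merged, the mean cover was 39.9% and the median 7.75%. Beside the 226 members at 0, 73 were covered for under 10%, 107 for 10% to under 90%, and 184 (31.2%) for 90% or more, of which 51 were covered completely. Loci of 20000 to 50000 bases split in a like way, with 42.1% at 0 and 31.0% at 90% or more. Of these narrower loci 12.0% were covered completely, against 8.64% of members. At least 50% of the bases was covered in 234 members (39.7%), against 41.3% of loci of 20000 to 50000 bases and 29.9% of all autosomal knockout loci. Table by table the mean cover was only 20.6% to 21.9%, and 117 to 127 members were covered for at least 50%.

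The difference between merged and single tables came from loci that reached across a member in some tables and not in others. Of the 184 members covered for at least 90% by the merged tables, 27 reached 90% in no single table, 85 in 1 table, 35 in 2, 19 in 3 and 18 in all 4. In 59 members the cover reached 90% in at least 1 table while at least 1 other table had no locus there. The extent of a wild-type locus over a member thus varied between tables of the same genotype. For example, the locus at chromosome 14, 26694119 to 26976091 (19.9 FPKM) was covered completely in wild-type replicate 3, for 0.0514% in replicate 4 and for 0 in replicates 1 and 2. The locus at chromosome 18, 35429275 to 35658490 (11.6 FPKM) was covered for 0, 65.5%, 68.8% and 34.5% in the 4 tables and completely when they were merged.

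Cover followed the level in the knockout table. In the lowest of 4 equal classes by FPKM 63.5% of members had no wild-type locus and 9.46% had one in all 4 tables. In the second class these shares were 42.2% and 17.01%, in the third 24.5% and 36.7%, and in the highest 23.0% and 56.8%. Mean merged cover rose over the classes from 19.6% to 30.0%, 50.9% and 59.0%. The loci of 20000 to 50000 bases gave 16.3%, 30.3%, 46.3% and 66.1% between the same levels. Spearman's rho between FPKM and merged cover was 0.38 across the 590 loci, which share the knockout library and the wild-type tables. The wild-type tables were much less deep, with 895779 to 926460 fragments against 10804715, and the part of depth in this pattern was not tested.

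**Figure D2:**
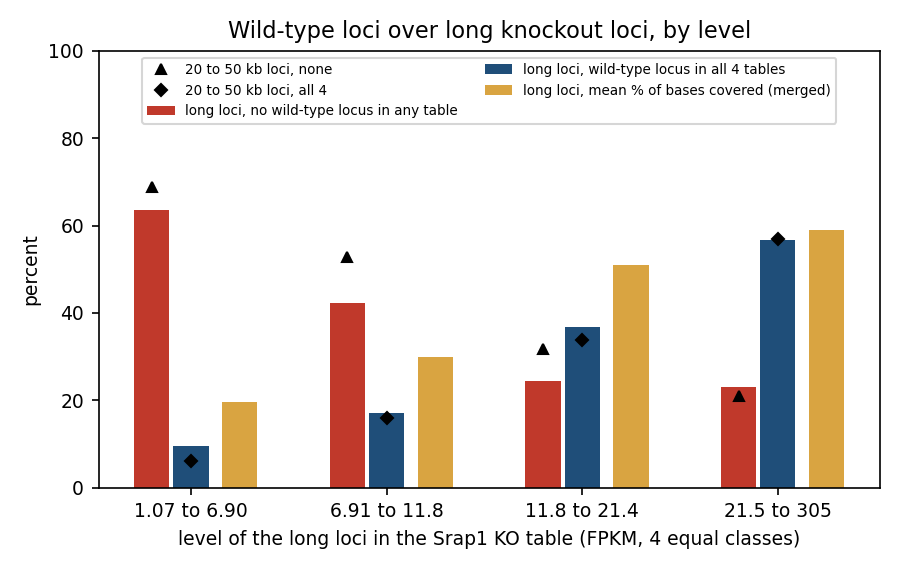
Percent of long loci with no wild-type locus (red) and with one in all 4 tables (blue), and mean percent of bases covered by the merged tables (yellow), in 4 equal classes by level in the Srap1 KO table (FPKM). Black triangles and diamonds give the first and the second share for loci of 20000 to 50000 bases between the same levels. The red bars fall from 63.5% to 23.0% while the blue bars rise from 9.46% to 56.8%.

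Level alone did not sort the members. Of the 160 with at least 20 FPKM, 37 (23.1%) had no wild-type locus in any table, and 89 had one in all 4. In the highest class by FPKM, these shares were 21.0% and 57.0% of the narrower loci, against 23.0% and 56.8% of members. In that class the shares of the long loci thus stood near those of narrower loci. In the classes below it, members lacked a wild-type locus less often than narrower loci. The share was 63.5% against 68.8% in the lowest class and 42.2% against 52.8% from 6.91 to 11.8 FPKM. From 11.8 to 21.4 FPKM it was 24.5% against 31.8%. In these classes 9.46%, 17.01% and 36.7% of members had a wild-type locus in all 4 tables, against 6.09%, 15.9% and 33.9%. The levels of the 37 were less certain, with an upper bound 31.8% above the value at the median, against 6.11% for the 89. No other knockout locus lay over 62.2% of the 37, against 19.1% of the 89. Among all 590, members free of other knockout loci had no wild-type locus in 56.7% of cases, against 31.6% of members with such loci. The splits by other knockout loci were not made for the narrower loci. The locus at chromosome 16, 91729796 to 91782454, with the highest level of all, belonged to the uncovered ones, as did chromosome 11, 35048332 to 35358304 (309972 bases, 42.7 FPKM with bounds of 29.1 and 56.3).

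The 5 widest members showed the whole range. The locus on chromosome 14 from 12386087 to 12924233 was covered for 0.324% by the merged tables, through small loci in 3 of them, the largest of which were 423, 978 and 766 bases wide. On chromosome 10 the locus from 27794709 to 28185846 (391137 bases, 8.13 FPKM) was covered for 21.1% by replicate 3 and for 0 by the others. The loci at chromosome 12, 42729756 to 43056226 (326470 bases, 6.47 FPKM) and at chromosome 11, 35048332 to 35358304, had no wild-type locus. The locus at chromosome 6, 33391387 to 33708188 (316801 bases, 12.5 FPKM) was covered for 57.1%, 57.3%, 100% and 56.5%, and in replicate 3 by a single locus of 661513 bases. By chromosome, the share of members with no wild-type locus ran from 16.1% on chromosome 8 to 57.9% on chromosome 18.

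Levels could be compared between the genotypes only where the same locus was assembled in every table. A mutual overlap of at least 80% with a locus in each of the 4 wild-type tables was found for 195 autosomal loci, and 10 of them were members. A locus was called when the knockout lay above or below all 4 wild-type tables and differed by at least 1 on the scale of log2(FPKM + 1). By this rule 3 members were higher in the knockout, 4 were lower and 3 were neither. Among all 195, 36.4% were higher and 13.3% lower. The median difference, knockout minus mean of wild type, was -0.28 over the 10 members and 0.56 over all 195. These 10 of 590 members are a small and unusual subset, since pairing needs the same ends in 5 tables.

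The largest decrease among them was at chromosome 1, 155086350 to 155179998. The wild-type tables had 129, 132, 133 and 140 FPKM there and the knockout had 27.5 (bounds of 25.9 and 29.2), a log2 difference of -2.24. The knockout lay far under all 4 wild-type values, which were close together (134 ± 4.72 FPKM, SD, n = 4). At chromosome 2, 93906332 to 93998008, the wild-type values were 52.8, 51.6, 33.8 and 49.8 FPKM and the knockout value was 15.6 (log2 difference of -1.51). At chromosome 10, 41904926 to 41995402, they were 12.4, 20.9, 18.98 and 13.5 FPKM against 5.40 (-1.41). At chromosome 13, 6586294 to 6647933, they were 67.2, 57.6, 55.7 and 101 FPKM against 32.5 (-1.05). That the knockout lay under every wild-type value in these 4 loci follows from the rule that called them.

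The 3 higher members showed more spread in wild type. At chromosome 3, 41359691 to 41420777, the wild-type tables had 42.4, 90.9, 20.1 and 50.6 FPKM and the knockout had 107 (log2 difference of 1.24). At chromosome 3, 8509445 to 8560537, they had 40.8, 50.7, 39.8 and 22.7 FPKM against 85.1 (1.18). At chromosome 6, 32742214 to 33010173, a locus of 267959 bases in a group of 5, they had 32.5, 24.7, 13.0 and 19.8 FPKM against 44.9 (1.04). By the rule, the knockout value lay above every wild-type value in each. In the first, the wild-type range alone spanned more than the distance from its mean to the knockout.

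In the other 3 the rule made no call. At chromosome 15, 85213334 to 85294894, the wild-type values were 34.4, 36.3, 34.3 and 38.0 FPKM and the knockout value was 39.2 (log2 difference of 0.13). At chromosome 1, 169152957 to 169215252, they were 27.5, 21.5, 39.1 and 23.7 FPKM against 38.5 (0.48), inside the wild-type range. At chromosome 12, 103806386 to 103943126, they were 38.5, 38.2, 28.8 and 52.3 FPKM against 23.7 (-0.68), under every wild-type value by less than the required size. Each library sets its own FPKM scale. The wild-type libraries gave more than 50% of their fragments to 1 locus, while the largest locus of the knockout held 378757 of its 10804715 fragments. A shift common to all loci therefore cannot be told apart from the genotype, and its part in the higher and lower calls was not tested.

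**Figure D3:**
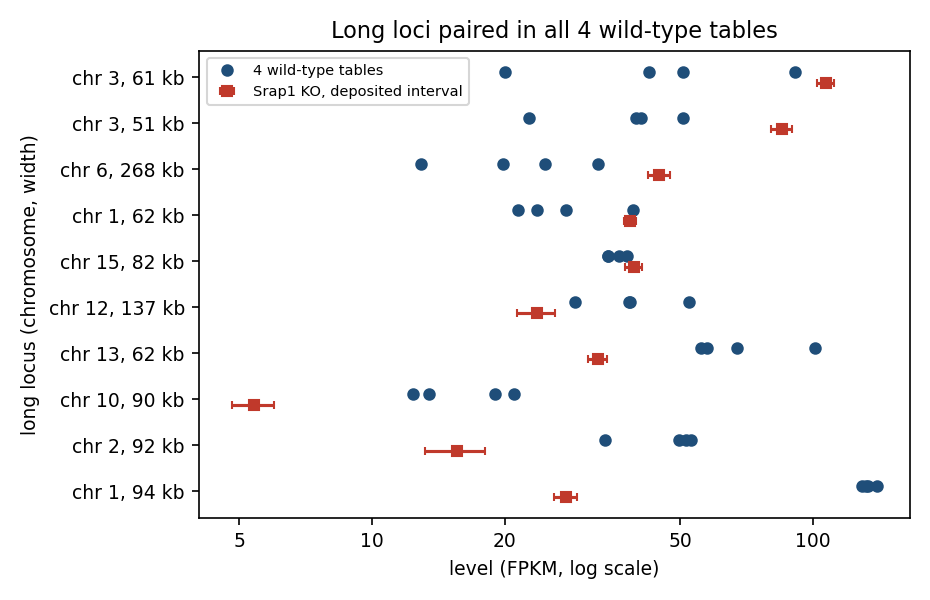
Level (FPKM, log scale) of the 10 long loci paired in all 4 wild-type tables, with 1 blue point per wild-type table and the Srap1 KO value in red with its deposited bounds, ordered by log2 difference. The lowest row, chromosome 1 at 94 kb, shows the knockout at 27.5 FPKM against 129 to 140 FPKM in wild type.

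The IgG DIP library of the knockout gave a measure that took no part in choosing the members. It held 8829315 autosomal reads, of which 7078073 (80.2%) had a mapping quality of at least 30 and were used, 2.86 per kb of chromosome. The density of each member was set against its 2 flanks, each as wide as the member, and the ratio was given a 95% exact binomial (Clopper-Pearson) interval, which covers counting error only. Reads amplified by PCR are not independent molecules.

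Over the long loci the density differed little from the flanks. The median was 3.82 reads per kb inside and 3.92 in the flanks, and the median ratio was 0.991 with quartiles at 0.888 and 1.12. With all reads pooled the ratio was 0.976 (0.971 to 0.982), against 1.02 (1.01 to 1.03) in loci of 20000 to 50000 bases. Single loci weigh on these pooled ratios, and the intervals do not cover that. The most reads inside a narrower locus were 2823 (median of 113), and the fewest inside a member were 2 (median of 280). The median ratio of the narrower loci was 1.01. Scaled to a common length, the median density in 10 bins along the members lay between 3.67 and 3.88 reads per kb, and in the bins of the flanks between 3.74 and 3.93, so there was no step at the ends. Neither width (Spearman's rho of 0.01), FPKM (-0.10) nor merged cover (0.04) was closely related to the ratio across the 590 loci, which share 1 library.

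Single members did depart from their flanks. The interval lay above 1 in 115 members (19.5%), below 1 in 122 (20.7%), and held 1 in 353. Loci of 20000 to 50000 bases had their interval above in 8.04% and below in 8.8%, with a median of 113 reads inside against 280 in the long loci, which makes their intervals wider. Without regard to the interval, 185 members (31.4%) were denser than both flanks and 203 (34.4%) less dense than both, against 32.2% and 29.6% of the narrower loci.

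The share of reads with a mapping quality under 30 moved with these departures. In the 115 members above their flanks it was 4.73% inside and 11.5% in the flanks at the median, and it was higher inside in only 4. In the 122 below their flanks it was 10.6% inside and 8.88% in the flanks, and higher inside in 88. Across the 590 members the difference in this share, inside minus flanks, had a Spearman's rho of -0.62 with the ratio. Both use the same reads, so this is a description. Reads of low quality are those that could be placed in more than 1 position or with little certainty, as in repeated sequence.

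The lowest ratios lay almost wholly in such regions. At chromosome 14, 26694119 to 26976091, only 2 reads of sufficient quality fell in 281972 bases, the ratio was 0.00219 (0.000265 to 0.00793), and 99.6% of the reads inside were of low quality, against 19.03% in the flanks. At chromosome 10, 81182000 to 81479460 (297460 bases, 3.54 FPKM, no wild-type locus), the ratio was 0.0292 (0.0195 to 0.0421) and 96.4% were of low quality. At chromosome 7, 111396067 to 111483902 (4.43 FPKM, lower bound of 0, no wild-type locus), the ratio was 0.0495 (0.0236 to 0.0920) and 90.5% were of low quality. With reads of every quality counted, the 3 ratios were 0.473, 0.626 and 0.380. In 19 members at least 50% of the reads inside were of low quality (3.22%, against 0.704% of the narrower loci). Their median ratio was 0.494, and 10 of them had no wild-type locus. A ratio under 0.5 was found in 13 of the 590 members and in 1 of the 1704 narrower loci. Of the 13 members, 10 belonged to these 19, and 4 of the 13 stayed under 0.5 with reads of every quality. Of these 4, the locus at chromosome 6, 30696647 to 30766880 (12.7 FPKM), named after its values were seen, had a ratio of 0.370 (0.292 to 0.465) and 9.18% of reads of low quality inside. Read-free stretches of at least 10 kb took 50183 of its bases, and without them its ratio was 1.30 (1.02 to 1.63), above its flanks.

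**Figure D4:**
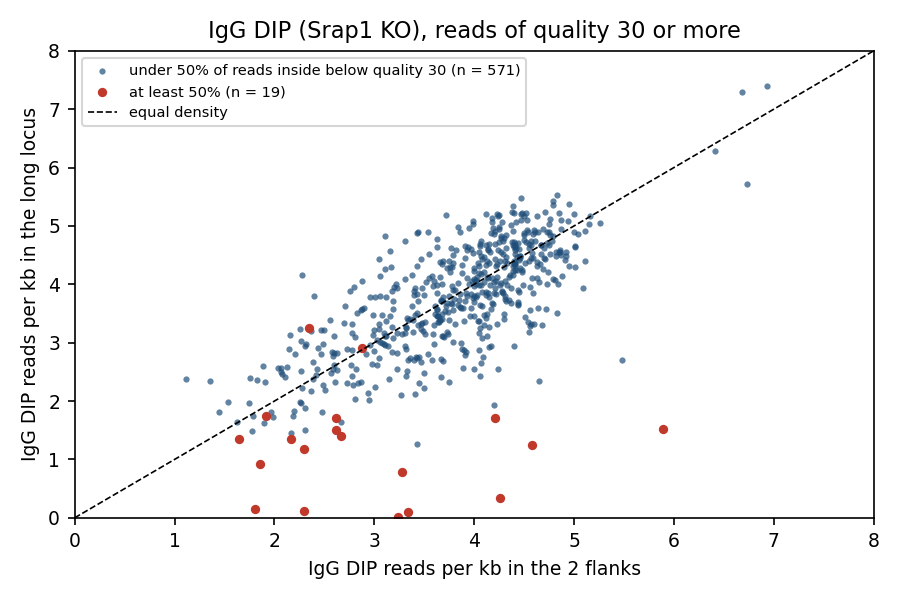
IgG DIP reads per kb (mapping quality of at least 30) in each long locus against its 2 flanks, with red points for the 19 members in which at least 50% of the reads inside were of lower quality and a dashed line at equal density. Most of the other 571 members follow the line, while the red points lie mostly under it, down to 0.00709 reads per kb.

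The highest ratios lay beside flanks with few usable reads. At chromosome 12, 42729756 to 43056226, the ratio was 2.14 (1.93 to 2.37), with 2.37 reads per kb inside, 0.417 in the left flank and 1.80 in the right. Stretches of at least 10 kb with no read of any quality took 271500 bases of these flanks, and without them the ratio was 1.25 (1.13 to 1.38). At chromosome 12, 89610148 to 89679686 (4.49 FPKM), the ratio was 1.82 (1.55 to 2.15), with 8.83% of reads of low quality inside and 37.0% in the flanks, and it was 1.26 with reads of every quality. At chromosome 17, 33470804 to 33531486 (14.9 FPKM, lower bound of 0), it was 1.72 (1.37 to 2.17), with 25.7% of low quality inside and 57.6% in the flanks, and 0.982 with reads of every quality. None of these 3 had a wild-type locus. A ratio of at least 1.5 was found in 5 of the 590 members and in 27 of the 1704 narrower loci, which held fewer reads each. Read-free stretches of at least 10 kb touched 10 members, inside in 4 and in a flank in 6.

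Departures also lay where reads could be placed well. In 481 members under 20% of reads were of low quality both inside and in the flanks, and no read-free stretch was present. The interval lay above 1 in 84 of them (17.5%) and below 1 in 81 (16.8%), against 19.5% and 20.7% of all 590 members. The ratios of the 481 ran from 0.461 to 1.59 with a median of 0.997. The lowest of these, singled out after its values were seen, was the locus at chromosome 17, 10405938 to 10512224 (106286 bases, 26.6 FPKM with bounds of 24.5 and 28.7). It had 1.94 reads per kb against 4.20 in the flanks, a ratio of 0.461 (0.395 to 0.537), with 13.8% of low quality inside and 6.39% in the flanks. Divided into bins of 10.6 kb, the locus had 1.41 to 2.45 reads per kb, the left flank 2.26 to 4.89 and the right flank 2.82 to 5.83. The low density thus ran along the locus and not in 1 place, and only the bin of the left flank with the lowest density overlapped the range inside. Wild-type loci were present there in all 4 tables and covered 99.6% of the bases when merged. With 1 knockout library and no wild-type IgG DIP analysed here, the density of this locus in wild-type DNA was not tested.

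**Figure D5:**
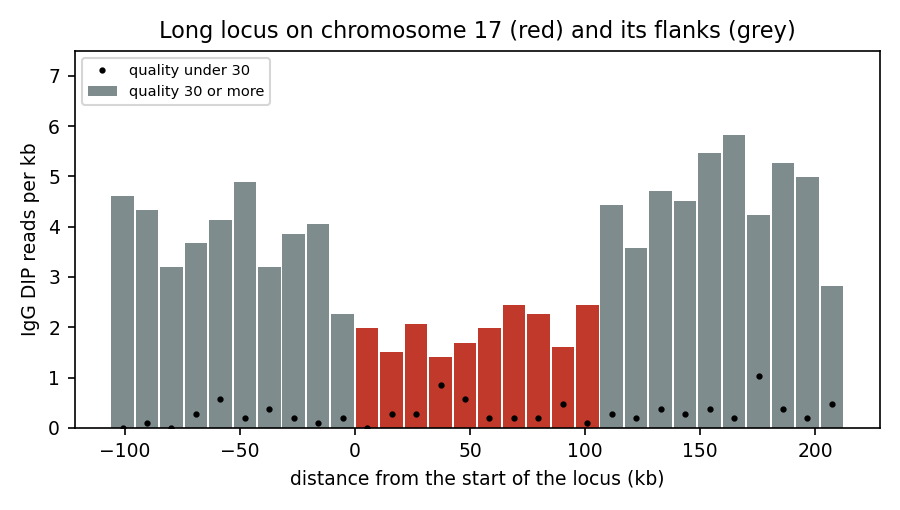
IgG DIP reads per kb in bins of 10.6 kb along the long locus of chromosome 17 (red) and its flanks (grey), by distance from the start of the locus in kb, with black points for reads of mapping quality under 30. The red bars lie between 1.41 and 2.45 reads per kb.

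A pair of neighbours on chromosome 9, also singled out after their values were seen, differed from each other. The locus at 34862973 to 34924415 (5.56 FPKM) had 2.34 reads per kb, a ratio of 0.504 (0.417 to 0.607). The next member, at 34932002 to 34983551 (18.6 FPKM), had 4.83 reads per kb, a ratio of 1.56 (1.31 to 1.84). Each lies in a flank of the other, so the 2 ratios are not independent, and neither locus had a wild-type locus over it. The largest ratio of the 481 was 1.59 (1.36 to 1.84) at chromosome 9, 9155159 to 9238975 (3.51 FPKM), where 3.05% of reads inside and 18.3% in the flanks were of low quality.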

How the data were processed

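RNA of 4 wild-type samples and 1 Srap1 KO sample and 1 IgG DIP library of Srap1 KO cells were analysed. The deposited RNA tables give FPKM with bounds, per the file headers, for loci assembled by the authors separately in each library. The deposited IgG DIP file has 1 row per read, with the mapping quality as its score. For RNA on mm9, the submitters' processing notes list Cufflinks 2.2.1.0, MACS2 2.1.1, Bowtie 0.12.8 and Trim Galore 0.3.5, and Bismark 0.14.5 in place of Cufflinks for DNA on mm9 and mm10; last read positions match mm9. Per the labels, libraries had 12 cycles of PCR.

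Samples were grouped by title. Overlap meant at least 1 base. Cover is the share of bases inside any wild-type locus, alone or merged over the 4 tables. Depth was read from the upper FPKM bound, taken as 2 standard deviations of a Poisson count, and is approximate. A read counted where its start fell. Paired loci of at least 300 bases were compared as log2(FPKM + 1), a scale on which changes of weak loci come out too small. Python 3.11.15 with pandas 2.3.3, numpy 2.4.6, scipy 1.17.1 and matplotlib 3.10.9 was used, and densities and covers were tested on simulated data. No gene could be named. Named loci were the 5 widest, the 3 highest and 3 lowest in FPKM, in merged cover (ties by width) and in IgG ratio, the largest cluster, and the 3 on either side of the width limit. The 10 paired members, the overlapping members and the groups of 5 were added. The members and lists were chosen with earlier results of these data known. Alternatives were other widths, distances, flanks, qualities, FPKM minimums and overlaps, and leaving out each wild-type table. The IgG ChIP windows were not used here.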

Additional observations from a re-analysis of the deposited data

Results flagged for a closer look

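For 29 quantities measured in each of the 4 wild-type tables, the table farthest from the other 3 was looked for by Dixon's rule, under which the gap to the nearest value must take more of the whole range than the 95% critical value. They were counts and means per table over the long loci, the levels of the 10 paired long loci, and the percent of bases covered at 10 named long loci. The other 17 named loci had a cover of 0 in at least 3 tables, where the rule has no meaning, and were left out. Chance flags about 1 in 20 such groups of well-spread values, a rate that does not hold for covers near 0.

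By this rule 5 quantities stood apart. At chromosome 2, 93906332 to 93998008, wild-type replicate 3 had 33.8 FPKM, against 49.8 to 52.8 in the other tables. On chromosome 6, 33391387 to 33708188, replicate 3 covered 100% of the bases and the others covered 56.5% to 57.3%. On chromosome 14, 26694119 to 26976091, replicate 3 covered 100% and the others covered 0 to 0.0514%. On chromosome 1, 91351422 to 91506163, replicate 3 covered 99.6% and the others covered 0 to 3.23%. On chromosome 8, 23972359 to 24022475, replicate 2 covered 82.4% and the others covered 0 to 1.56%.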

How the results depend on the processing

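Each measure of the long loci was recomputed with 1 choice changed at a time. A minimum width of 40000 bases gave 858 loci with a median of 12.0 FPKM, 63.6% of loci with another within 1 Mb, 0.773 wild-type loci per locus and 16.1% above their flanks. A minimum of 75000 bases left 289 loci with 11.0 FPKM, 28.7% with a near neighbour, 0.779 wild-type loci, 38.6% mean cover, 38.4% covered for at least 50% and 23.2% above their flanks. A minimum of 100000 bases left 161 loci with 10.9 FPKM, 21.1%, 0.843, 37.7%, 37.3%, and 28.0% each above and below their flanks. Members of at least 5 FPKM had a median of 14.1 FPKM. A distance of 500 kb or 2 Mb gave 35.4% or 71.4% with a near neighbour.

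Leaving out each wild-type table gave a mean cover of 35.4% to 36.4%, 35.1% to 36.1% covered for at least 50%, and 0.809 to 0.821 loci per member. With the cover of each member averaged over the 4 tables instead of merged, the mean was 21.4%, and 17.3% of members had an average of at least 50%. Wild-type loci at least 50% inside numbered 0.720 per member, and those of at least 10 FPKM 0.659, with 38.0% cover and 38.3% covered for at least 50%. For IgG DIP, all qualities gave a median ratio of 0.983 and 11.7% above. Flanks with 50% of the width gave 1.00, 12.7% above and 17.5% below, and flanks of 2 times the width gave a ratio of 1.01.

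The last alternatives were chosen after seeing the data. Without the members with at least 50% of their reads of low quality, the median was 11.8 FPKM, the cover 40.7%, the share covered for at least 50% 40.6% and the ratio 0.997. With only members whose upper bound lay within 50% of the value, these were 12.2 FPKM, 41.8%, 41.6% and 0.999, with 0.861 wild-type loci. The median ratio thus lay between 0.983 and 1.01 under every alternative run. No paired analysis was possible because the knockout has 1 sample. The wild-type tables are less deep than the knockout table, and no alternative equalised the depth.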
